A study of Rattus norvegicus with 46 samples.

Results

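The comparison set 8 libraries of intact brain from rats on a ketogenic diet against 8 libraries of intact brain from rats on a standard diet. Members were taken by the group named in their labels, and they are 16 of the 46 samples of the series. The other 30 are ischemic lesions, 11 from the standard and 19 from the ketogenic diet, taken 14 days after occlusion of the middle cerebral artery (MCAO), a rat model of stroke. All animals were male Wistar rats, 3 months old at the start, with no genetic change given. The standard diet, called ad libitum in the labels, held 3227 kcal/kg, with fat giving 11%, protein 24% and carbohydrate 65% of the energy. The ketogenic diet held 6431 kcal/kg, with fat giving 84%, protein 11% and carbohydrate 5%. Feeding lasted 2 months, and then 2 weeks more in every group. The brain region and hemisphere of the intact tissue are not given in the labels, nor is it stated that each sample is a separate animal, so the p-values measure the spread between these samples.

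A ketogenic diet holds carbohydrate so low that the liver turns fatty acids into the ketone bodies beta-hydroxybutyrate and acetoacetate. Brain cells take these up through monocarboxylate transporters and oxidise them in mitochondria in place of part of their glucose. In sequencing of bulk brain RNA a few very abundant transcripts take a large share of all reads, so a change in their share moves the share left for every other gene.

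Each library was a sample of polyA RNA counted per gene. The 8 standard libraries totalled between 8883068 and 18868791 counts, and the 8 ketogenic ones between 12911844 and 20420918. The smallest total belonged to standard library 85, and no other library was under 12911844. Standard library 83 stood apart in another way: 15 genes lay at least 4-fold above every other intact library, among 14063 genes whose mean reached 1 CPM (counts scaled to the library total). This compares with 1 gene in standard library 87 and 0 in each of the other 14 libraries. The labels name no batch, and the sample numbers of the diets do not interleave, with 45 to 59 on the ketogenic and 83 to 90 on the standard diet, so any batch that went with the numbers cannot be told apart from diet. Genes are given by Ensembl ID, because the files do not pair the IDs with names. The tissue label could therefore not be checked against markers of brain cell types.

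The top of the transcriptome weighed less on the ketogenic diet. When the 20 genes with the most counts were taken in each library, their summed share of counts ran from 15.99% to 31.2% on the standard diet, with a median of 24.8%, and from 14.2% to 23.5% on the ketogenic diet, with a median of 18.2%. The ranges overlapped. The lowest standard library was 85, at 15.99%, and the next was 86, at 22.3%. The highest ketogenic libraries were 59, at 23.5%, and 45, at 22.6%. The means were 24.5% ± 4.52 and 18.5% ± 3.39 (SD, n = 8 each), a difference of -6.08 percentage points (two-sided exact permutation p = 0.0107). This difference was known when the comparison was chosen, so its p is a description. Without standard library 83 it was -5.13 points (exact permutation p = 0.0214), and without standard library 85 it was -7.31 points (exact permutation p = 0.00218). In bulk tissue, fewer cells of a type and less RNA per cell cannot be told apart as the source of a lower share.

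**Figure D1:**
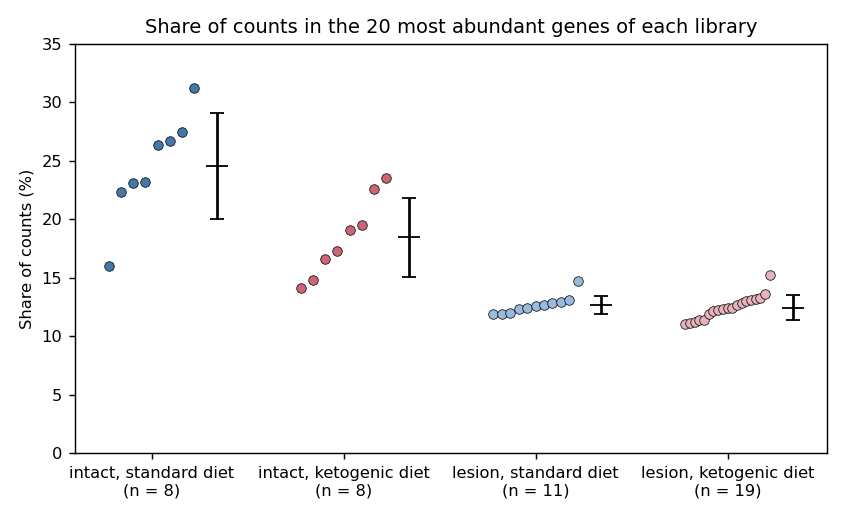
Share of counts (%) held by the 20 most abundant genes of each library, by group, with 1 point for each library and the mean and SD of each group. Ketogenic intact libraries lie between 14.2% and 23.5%, standard intact libraries between 15.99% and 31.2%, and the lesion groups average 12.7% and 12.5%.

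Counts were spread over more genes on the ketogenic diet, which restates the lower share at the top and is not a further result. The smallest number of genes that together held 50% of counts ran from 332 to 701 on the standard diet, with a mean of 493 ± 109 (SD, n = 8), and from 501 to 751 on the ketogenic diet, with a mean of 634 ± 92.3 (SD, n = 8). Library 85 was again the standard library nearest to the ketogenic ones. The number of genes with any count, after thinning each library to 8883068 counts, was 17358 ± 274 and 17496 ± 130 (SD, n = 8 each). Before thinning, 12809 genes reached 1 CPM in all 16 libraries, and 0 genes reached it in every library of a diet and in none of the other. Genes that reached it in only some libraries of 1 diet were not counted.

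Largely the same genes headed the libraries, so the lower share can be assigned to named IDs. Over all 16 libraries 29 genes appeared in some library's 20 most abundant, and 13 appeared in all of them. The 20 with the highest mean level were then followed as 1 fixed set, with their rank in that order. Ranks order counts, which are not corrected for transcript length. The fixed set held 24.5% ± 4.51 of counts in standard and 18.4% ± 3.42 in ketogenic libraries (SD, n = 8 each), a gap of -6.12 points (exact permutation p = 0.0106). Of its genes, 15 had a lower mean share on the ketogenic diet, by -6.30 points in sum, and 5 had a higher one, by 0.180 points.

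The largest part of the gap came from the 3 genes at the top. ENSRNOG00000034234, rank 1, ran from 3.40% to 6.57% of counts on the standard diet, with a median of 5.24%, and from 2.89% to 6.58% on the ketogenic diet, with a median of 3.88%. Of the ketogenic libraries 7 of 8 lay below the standard median, and library 59 lay above every standard library. The mean went from 5.25% ± 1.08 to 4.06% ± 1.24 (SD, n = 8 each), which is 19.4% of the gap. ENSRNOG00000030700, rank 3, ran from 1.43% to 3.14% on the standard diet (median 2.52%) and from 1.11% to 2.28% on the ketogenic diet (median 1.601%). All 8 ketogenic libraries lay below the standard median, and 3 lay below every standard library. Its mean went from 2.47% ± 0.553 to 1.61% ± 0.423, or 14.1% of the gap. ENSRNOG00000031979, rank 2, ran from 1.35% to 3.32% (median 2.57%) and from 1.05% to 2.43% (median 1.68%). Here too 8 of 8 ketogenic values lay below the standard median and 3 below the whole standard range. Its mean went from 2.52% ± 0.576 to 1.70% ± 0.492, or 13.4% of the gap. Together these 3 IDs made up -2.87 points, 46.9% of the gap. They also held the most counts, so their parts of the gap reflect level as well as fall. Relative to level, rank 1 did not fall the most of the 3. Its log2 fold change in edgeR was -0.45, against -0.65 for rank 2 and -0.70 for rank 3.

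The next ranks held most of what was left. ENSRNOG00000031766 (rank 6) went from a mean of 1.63% ± 0.412 to 1.08% ± 0.481 of counts (SD, n = 8 each), or 8.94% of the gap. ENSRNOG00000031033 (rank 7) went from 1.39% ± 0.366 to 0.865% ± 0.299, or 8.52%. ENSRNOG00000030371 (rank 5) went from 1.66% ± 0.360 to 1.17% ± 0.341, or 7.92%. In each of these 3 genes, 7 or 8 of the 8 ketogenic libraries lay below the standard median, and in none did the diets separate. ENSRNOG00000029707 (rank 9) went from 1.21% ± 0.333 to 0.782% ± 0.302, or 7.03% of the gap. ENSRNOG00000030644 (rank 10) went from 1.07% ± 0.234 to 0.750% ± 0.210, or 5.20%. Smaller parts came from ENSRNOG00000029971 (rank 13, 0.640% ± 0.169 to 0.425% ± 0.146, 3.51% of the gap) and ENSRNOG00000033615 (rank 16, 0.423% ± 0.105 to 0.318% ± 0.0702, 1.72%).

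**Figure D2:**
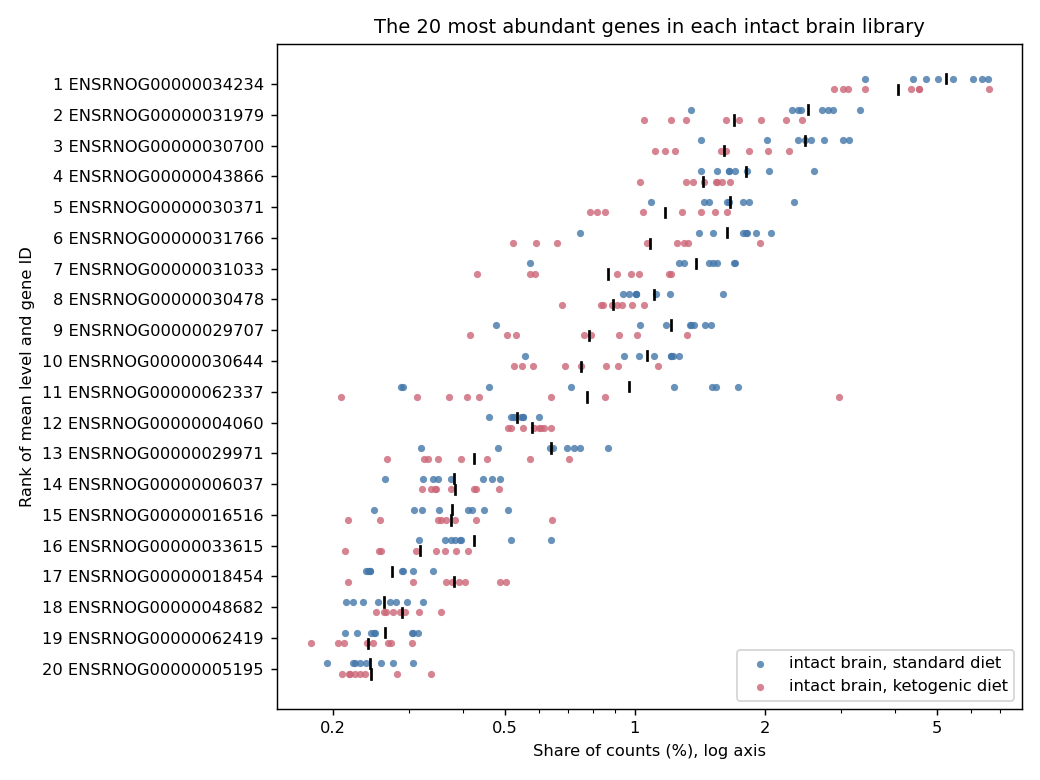
Share of counts (%, log axis) of the 20 genes with the highest mean level in each of the 16 intact libraries, 1 point for each library and a bar at the mean of each diet. Ketogenic points lie mostly to the left for ranks 1 to 10, ranks 13 and 16, and overlap the standard points in every gene.

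A pair of further abundant genes had lower means with less spread between ketogenic libraries. ENSRNOG00000043866 (rank 4) ran from 1.422% to 2.60% on the standard and up to 1.66% on the ketogenic diet. All 8 ketogenic libraries lay below the standard median of 1.68%, and the mean went from 1.80% ± 0.371 to 1.44% ± 0.201 (SD, n = 8 each), or 6.002% of the gap. ENSRNOG00000030478 (rank 8) ran from 0.938% to 1.600% and from 0.680% to 1.05%, with means of 1.11% ± 0.218 and 0.890% ± 0.111, or 3.53% of the gap. For rank 8, 6 of 8 ketogenic libraries lay below the whole standard range, more than for any other of the 20, and its highest value was in standard library 83.

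Single libraries set the means of other members. ENSRNOG00000062337 (rank 11) ran from 0.288% to 1.73% on the standard diet (median 0.973%) and from 0.209% to 2.96% on the ketogenic diet (median 0.422%). The 2.96% was ketogenic library 51, and the next ketogenic library was at 0.855%. The means, 0.971% ± 0.6004 and 0.774% ± 0.906 (SD, n = 8 each), lie closer together than the medians. In edgeR the log2 fold change was -0.42 (SE 0.57, adjusted p = 0.770), which did not pass. It was -1.17 without ketogenic library 51 (edgeR adjusted p = 0.294), -0.28 without ketogenic library 57 and -0.23 without standard library 83, and passed in none of these.

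ENSRNOG00000018454 (rank 17) went the other way. It ran from 0.239% to 0.341% of counts on the standard diet (median 0.267%) and from 0.217% to 0.504% on the ketogenic diet (median 0.385%). The 0.217% was ketogenic library 59, the lowest of all 16, and the other 7 ketogenic libraries lay above the standard median. Means were 0.274% ± 0.0383 and 0.382% ± 0.0924 (SD, n = 8 each), or 0.39 on the log2 scale (SE 0.13, edgeR adjusted p = 0.177), which did not pass. Without library 59 it was called (edgeR adjusted p = 0.0387).

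The remaining 6 of the 20 differed little in mean share. ENSRNOG00000004060 (rank 12) had means of 0.534% and 0.578% of counts, ENSRNOG00000006037 (rank 14) of 0.382% and 0.383%, and ENSRNOG00000016516 (rank 15) of 0.377% and 0.375%, standard before ketogenic. ENSRNOG00000048682 (rank 18) had 0.262% and 0.289%, ENSRNOG00000062419 (rank 19) 0.264% and 0.241%, and ENSRNOG00000005195 (rank 20) 0.244% and 0.245%. For each of these, 0 of the tests passed, and the log2 fold changes lay between -0.21 and 0.07.

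Genes of the set varied together from library to library. Counts of each gene were taken relative to all genes outside the 20, on the log2 scale, and correlated with rank 1 within each diet over 8 libraries. An r of at least 0.6 in both diets was reached by 9 genes, ranks 2, 3, 5, 6, 7, 9, 10, 13 and 16, which with rank 1 form a set of 10. This set was chosen after its values were seen and is described without a test. Just inside the limit were rank 16 (r = 0.722 over standard and 0.852 over ketogenic libraries) and rank 6 (0.908 and 0.749). Just outside, by their lower r, were rank 8 (0.684 and 0.497), rank 15 (0.440 and 0.562) and rank 20 (0.727 and 0.426). Among all 45 pairs of the 10 genes the median r was 0.926 over standard and 0.884 over ketogenic libraries, with lowest values of 0.563 and 0.6001. The points share their library and its depth, and the 10 genes share the reference they were set against.

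The 10 genes that varied together made up -5.50 points, 89.8% of the gap, and the other 10 made up -0.626 points, 10.2%. The 10 summed to between 10.3% and 22.9% of counts on the standard diet, with a median of 18.8%, and to between 8.54% and 18.3% on the ketogenic diet, with a median of 12.9%. The means were 18.3% ± 3.94 and 12.8% ± 3.69 (SD, n = 8 each). Standard library 85 was the lowest of its diet, at 10.3%, and was so in each of the 10 genes, while ketogenic library 59 was the highest of its own, at 18.3%. The other 10 genes summed to 6.22% ± 1.03 and 5.59% ± 1.004 (SD, n = 8 each), with the highest value on the ketogenic diet, 8.02%, in library 51, where rank 11 was high.

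**Figure D3:**
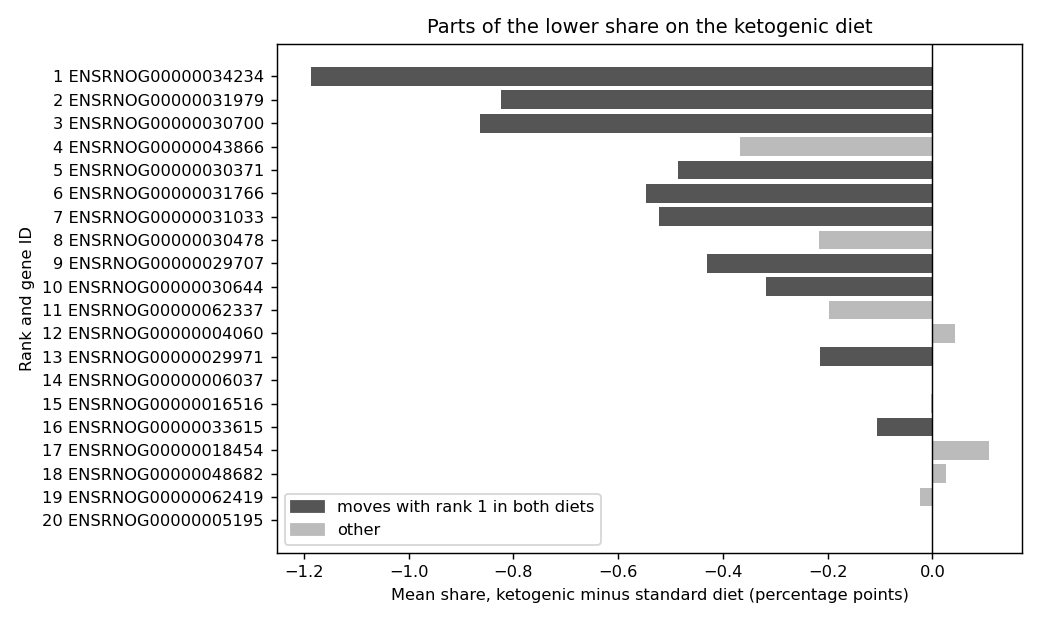
Difference in mean share of counts (percentage points, ketogenic minus standard) of each of the 20 most abundant genes in intact brain, with dark bars for the 10 genes that varied together and light bars for the others. Ranks 1, 2 and 3 make up -2.87 of the -6.12 points, and the 10 genes together -5.50. Bars are in points, so their length reflects the level of a gene as well as its relative difference.

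In the test of every gene, 0 of the 20 passed after adjustment over 14746 genes. The log2 fold changes, scaled by TMM (trimmed mean of M values), ran from -0.76 to -0.45 in the 10 genes that varied together. The smallest adjusted p among the 20 belonged to ENSRNOG00000030700, at -0.70 on the log2 scale (SE 0.19, edgeR adjusted p = 0.141), followed by ENSRNOG00000031979 with -0.65 (SE 0.20, adjusted p = 0.167). For ENSRNOG00000034234 it was -0.45 (SE 0.19, adjusted p = 0.274). At an unadjusted p under 0.05, 12 of the 20 were lower and 1, ENSRNOG00000018454, was higher. Of all genes tested, 6.67% were lower and 8.12% were higher. Leaving out each library in turn gave 10 to 13 of the 20 lower and 1 higher. The lower summed share of the most abundant genes was known when the comparison was chosen. The 10 genes that varied together are among the 12, so these are not 12 separate results and their count is a description. DESeq2 called ENSRNOG00000030700 (adjusted p = 0.0204) and ENSRNOG00000031979 (adjusted p = 0.0437), both lower. Without ketogenic library 59, edgeR called ENSRNOG00000029971, lower (adjusted p = 0.0492), and ENSRNOG00000018454, higher. With the share of the 20 as a covariate, 0 of the 20 had an unadjusted p under 0.05 in edgeR, where the covariate is built from these same genes.

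In lesions the share of each library's own 20 most abundant genes, which are partly other genes, differed little by diet. It was 12.7% ± 0.798 on the standard diet (SD, n = 11) and 12.5% ± 1.03 on the ketogenic diet (SD, n = 19). The fixed set of 20 from intact brain summed to 11.5% ± 1.23 and 10.8% ± 1.56 in the same lesions. The diet difference in intact brain exceeded that in lesions by -5.87 points (permutation p = 0.0160, 100000 resamples), and by -5.37 points for the fixed set (permutation p = 0.0332). Most of this value is the intact-brain difference on which the comparison was chosen, so these p-values too are descriptions. Diet labels were permuted within each tissue, which sets the value against no diet difference in either tissue. The comparison is in points, and lesions held a lower share on both diets. A relative difference of the shares between tissues was not tested. The 10 genes that varied together in intact brain summed to 7.27% ± 1.40 and 6.41% ± 1.75 in lesions. Each of the 10 had a lower mean share on the ketogenic diet there too. None of them passed in lesions (smallest edgeR adjusted p = 0.340). Gene by gene, ENSRNOG00000034234 was at 1.90% ± 0.513 and 1.71% ± 0.509 in lesions, and ENSRNOG00000030700 at 0.955% ± 0.137 and 0.847% ± 0.209. ENSRNOG00000018454 averaged 1.14% ± 0.471 and 1.46% ± 0.906 there. For single genes, 0 of 16140 interactions of diet and tissue passed (edgeR over 46 libraries), and 719, or 4.45%, had an unadjusted p under 0.05. For ENSRNOG00000030700 the interaction, lesions minus intact brain, was 0.54 on the log2 scale (SE 0.24, adjusted p = 0.9999).

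Beyond these genes the diet comparison gave many small differences and no call with edgeR. The share called at an adjusted p under 0.05 was 0% of 14746 genes, with a smallest adjusted p of 0.0803. At an unadjusted p under 0.05 there were 2181 genes (14.8%), of which 1197 were higher and 984 lower. Their sizes were modest: the median was 0.28 on the log2 scale among higher and 0.32 among lower genes. At least 2-fold differences numbered 41, with 12 higher and 29 lower, and at least 1.5-fold differences 236, with 82 higher and 154 lower. Groups did not overlap, on TMM-scaled levels, for 7 higher genes (0.0475%) and 9 lower ones (0.061%).

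The direction of these differences went with the level of the gene. Genes were ranked by mean level over the 16 libraries, and the ranges of ranks were set after results were known. In ranks 1 to 20, 60% of genes were lower and 5% higher at an unadjusted p under 0.05. This top range restates the lower share on which the comparison was chosen. In ranks 21 to 100 the order turned, with 4 of 80 lower (5%) and 16 higher (20%). It was the same in ranks 101 to 1000, with 46 of 900 lower (5.11%) and 144 higher (16%), and in ranks 1001 to 5000, with 256 of 4000 lower (6.40%) and 514 higher (12.85%). Among the 9746 tested genes past rank 5000, 666 were lower (6.83%) and 522 higher (5.36%). Median log2 fold changes from the top range down were -0.43, 0.06, 0.05, 0.03 and -0.02. Leaving out any 1 library kept higher genes ahead in ranks 21 to 5000 and lower genes ahead past rank 5000. Other settings turned parts of this order. Past rank 5000, library totals only gave 289 lower and 1028 higher, 1 fit over all 46 libraries 445 and 579, and the share of the 20 as a covariate 232 of each. In ranks 21 to 100 the fit over all 46 libraries gave 2 lower and 1 higher, and the covariate 1 and 3. In ranks 1001 to 5000 the covariate gave 95 lower and 93 higher. The share used as this covariate itself differed by diet.

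**Figure D4:**
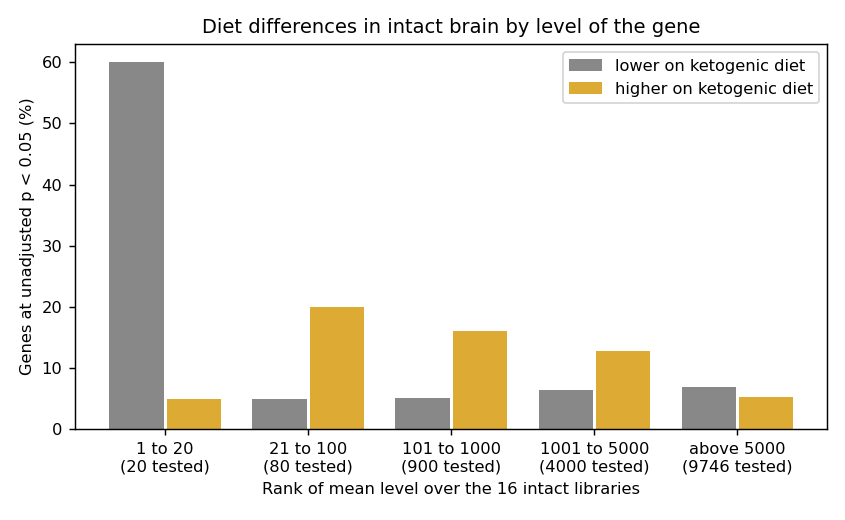
Percentage of tested genes at an unadjusted p under 0.05 (edgeR) that were lower or higher on the ketogenic diet, by range of the gene's rank in mean level over 16 intact libraries. Lower genes make up 60% of the top 20, whose lower share was known when the comparison was chosen. Higher genes are ahead from rank 21 to rank 5000. Other settings turned this order in part (2 lower and 1 higher in ranks 21 to 100 in the fit over all 46 libraries).

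The ranges below the top 20 each held a higher mean share on the ketogenic diet. Ranks 21 to 100 held 9.51% ± 0.542 of counts in standard and 10.3% ± 0.484 in ketogenic libraries (SD, n = 8 each). Ranks 101 to 1000 went from 26.1% ± 1.85 to 28.6% ± 1.07, and ranks 1001 to 5000 from 28.6% ± 1.76 to 30.9% ± 1.43. Genes past rank 5000 went from 11.2% ± 0.529 to 11.8% ± 0.608. These are shares of all counts, without TMM scaling. Shares of 1 library sum to a fixed total, so the rise summed over these ranges restates the lower share above. Only its division among the ranges is not fixed by that total. Scaling by library totals only shifted the median gene by 0.08 on the log2 scale, and 86.0% of the genes at an unadjusted p under 0.05 were then higher, against 54.9% with TMM. With the 20 genes removed from counts and totals, a choice made after seeing the data, the medians below the top were 0.05, 0.05, 0.03 and -0.02.

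How many genes counted as different rested on the method and on single libraries. DESeq2 called 274 genes (1.86%), with 154 higher and 120 lower. All 274 were among the 2181. Their median size was 0.35 on the log2 scale, 246 were under 1.5-fold and 4 reached 2-fold. In ranks 101 to 1000 they were 33 higher and 4 lower, and past rank 5000 they were 40 higher and 77 lower. One edgeR fit over all 46 libraries called 63 genes, with 53 higher and 10 lower, and edgeR without ketogenic library 59 called 170, with 95 higher and 75 lower. Without standard library 85 it called 9, without standard library 90 it called 2 and without ketogenic library 47 it called 1. The DESeq2 list and the list without library 59 shared 139 genes, 50.7% of the first and 81.8% of the second, and 36 genes were in both of these and in the fit over all libraries. The 274 were also read in lesions, which share no libraries with intact brain, and 252 (92.0%) had the same sign there. Of the 14661 genes tested in both, 9633 (65.7%) did. In lesions 8 of the 274 were called, where 0.741% of all genes were. Sample numbers of the lesions do not interleave by diet either, with 3 to 43 on the ketogenic and 61 to 82 on the standard diet. A batch that went with the numbers thus cannot be told apart from diet in either tissue. Nor do the labels state that intact and lesion samples came from separate animals.

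Outside the top 20, 2 IDs in each direction had the smallest p in edgeR among genes whose mean reached 5 CPM, and all 4 missed the threshold. ENSRNOG00000031171 lay between 11.9 and 19.8 CPM in standard libraries (median 15.6) and between 18.2 and 30.7 CPM in ketogenic ones (median 22.6). Of the ketogenic libraries 6 of 8 lay above the highest standard one. Means were 15.5 ± 2.31 and 22.9 ± 3.80 CPM (SD, n = 8 each), or 0.49 on the log2 scale (SE 0.09, edgeR adjusted p = 0.0803). In lesions it averaged 24.8 CPM on the standard diet and 25.6 CPM on the ketogenic diet, and the interaction was -0.42 (SE 0.11, adjusted p = 0.557), which did not pass. ENSRNOG00000045998 ran from 63.6 to 97.7 CPM (median 78.7) and from 85.6 to 128.3 CPM (median 111.5). Here 7 of 8 ketogenic libraries lay above the standard range, and the edgeR log2 difference was 0.41 (SE 0.08, adjusted p = 0.0876).

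The lower pair showed a like degree of separation. ENSRNOG00000004516 lay between 20.3 and 32.5 CPM in standard libraries (median 28.4) and between 12.8 and 21.8 CPM in ketogenic ones (median 17.6). The plain CPM of 5 of 8 ketogenic libraries lay below the standard range, and after TMM scaling the diets did not overlap. The log2 difference was -0.68 (SE 0.12, edgeR adjusted p = 0.0803). Lesions spread more widely, at 66.5 ± 40.8 CPM (SD, n = 11) and 70.9 ± 56.3 CPM (SD, n = 19). The log2 difference in lesions had the opposite sign, at 0.11 (SE 0.37, edgeR adjusted p = 0.950). ENSRNOG00000031222 ran from 103.3 to 142.9 CPM (median 115.7) and from 67.1 to 104.3 CPM (median 90.3). Of its ketogenic libraries 7 of 8 lay below the standard range, and the log2 difference was -0.50 (SE 0.09, edgeR adjusted p = 0.0803). In lesions ENSRNOG00000031222 too had the opposite sign, at 0.20 (SE 0.30, edgeR adjusted p = 0.861). All 4 IDs were called by DESeq2 and by edgeR without standard library 85 or without ketogenic library 59. The lower pair is thus among the DESeq2 calls whose sign differed in lesions. The higher pair kept its sign there, at 0.08 for ENSRNOG00000031171 and 0.22 for ENSRNOG00000045998.

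**Figure D5:**
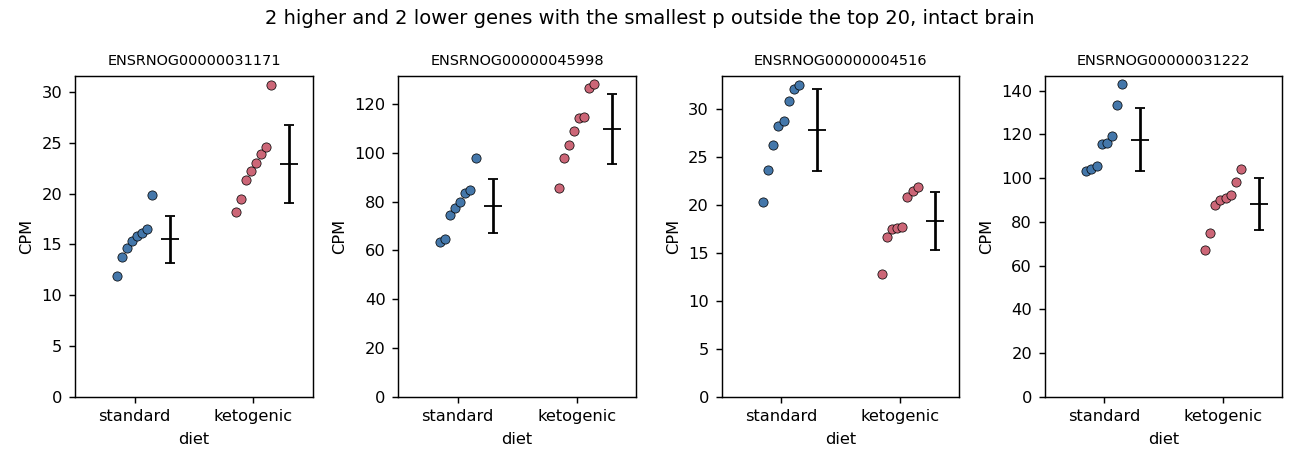
CPM in each of the 16 intact libraries for the 2 higher and 2 lower IDs with the smallest p outside the top 20, by diet, with 1 point for each library and the mean and SD of each diet. In ENSRNOG00000031171, 6 of 8 ketogenic libraries lie above the standard range, and in ENSRNOG00000031222, 7 of 8 lie below it.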

How the data were processed

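The authors deposited raw, unnormalized counts for 30452 genes, named by Ensembl ID. Per the labels' protocols, RNA came from a column kit and polyA libraries from a directional kit. The build is mRatBN7.2, per the submitters' processing notes, which name HTSeq 0.7.2 and HISAT2 2.0.5 among their tools. Annotation release and strand setting are not given in the sources used here. Overlapping and antisense genes could thus not be told apart. Series table and sample files differed in 0 cells, and 39 further columns of that table were not used.

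From these counts, diet was fitted on the 16 intact libraries with edgeR 4.0.16 in R 4.3.3: TMM scaling, filterByExpr and the robust quasi-likelihood F test, with calls at a p under 0.05 after Benjamini-Hochberg adjustment. The interaction used all 46 libraries. Shares were tested by two-sided permutation over libraries, exact for 8 against 8, where the smallest possible p is 0.000155. Alternatives were DESeq2 1.42.0, limma 3.58.1 voom, sva 3.50.0, other scalings, filters, thinning, a covariate and leaving out each library. The fits were tested on simulated data. The closest intact pair in a group differed by a chi-square of 12.8 per degree of freedom, above counting noise, so no library was counted as a repeat of another. This does not show that they came from separate animals.

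Of the IDs, 0 matched the gene table used here. The 40 gene lists, and the 2 planned shares of mitochondrially encoded and of nuclear genes, could not be computed, so the share of the 20 most abundant genes has no adjustment over 3 shares. The naming rule took the 20 genes with the highest mean CPM and, outside them, the 2 genes in each direction with the smallest p. The latter was narrowed from a longer list because IDs carry no names. The comparison, its members and its lists were chosen with earlier results of these data known.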

Additional observations from a re-analysis of the deposited data

Results flagged for a closer look

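Among 56 sets of 8 library values examined, 6 held a library far from the others of its diet; chance gives about 1 in 20. Standard library 85 was far below its group in 3 of the abundant genes that varied together. It had 0.571% of counts in ENSRNOG00000031033, where the next standard library had 1.27%. It had 0.478% in ENSRNOG00000029707, where the next had 1.03%, and 0.558% in ENSRNOG00000030644, where the next had 0.944%. Standard library 83 was above its group in ENSRNOG00000030478, at 1.600% against 1.21% in the next. Ketogenic library 59 was above its group in ENSRNOG00000034234, at 6.58% against 4.55%. Ketogenic library 51 held 2.96% of its counts in ENSRNOG00000062337, and the next ketogenic library 0.855%.

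The diet difference in the share of the 20 most abundant genes differed between tissues, by -5.87 percentage points for intact brain minus lesions (permutation p = 0.0160, 100000 resamples). It rests mostly on the intact-brain difference on which the comparison was chosen, so this p is a description. The permutation set it against no diet difference in either tissue. It is a difference in points, and a relative difference of the shares was not tested.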

How the results depend on the processing

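The lower share of the 20 most abundant genes kept its direction and its side of the threshold in all alternatives run. It ran from -7.31 to -5.13 points when each library was left out. It was -5.60 points for 10 genes, -5.74 for 50, -6.12 for the fixed set and -0.41 as a log2 difference. These alternatives reuse nearly the same value of each library, and the difference was known when the comparison was chosen, so this is a description. The count of diet genes moved: against 0 with edgeR it was 274 with DESeq2, 63 in 1 fit over all 46 libraries and 0 to 170 when each library was left out. The count stayed at 0 with RLE scaling, library totals, either filter, voom, 2 surrogate variables, thinning, the share as covariate and the 20 genes removed. The interaction count was 0 with edgeR, 2 with DESeq2 and 13 with voom. The cause of these moves was not tested. Genes at an unadjusted p under 0.05 fell from 2181 to 704 with the share as covariate. That share itself differed by diet, so the covariate overlaps with diet in this fit and the fall is a description.

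Of 628 alternative values of the 24 IDs, 593 kept direction and call, 17 passed the threshold in addition and 18 changed sign. With the share as covariate, 11 of the 20 abundant genes turned positive on the log2 scale: ENSRNOG00000034234 (0.13), ENSRNOG00000031979 (0.014), ENSRNOG00000030371 (0.027), ENSRNOG00000031766 (0.12), ENSRNOG00000031033 (0.012), ENSRNOG00000029707 (0.10), ENSRNOG00000030644 (0.033), ENSRNOG00000062337 (0.065), ENSRNOG00000016516 (0.23), ENSRNOG00000033615 (0.0010) and ENSRNOG00000005195 (0.20). That covariate is built from nearly these same genes, so their signs under it are descriptions. With library totals only, ENSRNOG00000006037 was at 0.0037 and ENSRNOG00000005195 at 0.0061, and with 2 surrogate variables ENSRNOG00000048682 was at -0.014. Leaving out each library gave -0.26 to 0.024 for ENSRNOG00000016516 and -0.18 to 0.0020 for ENSRNOG00000005195. The alternatives that need mitochondrially encoded or nuclear genes to be known were not run. No paired analysis was possible because the diets share no sample numbers. Depth limits the rarest genes: the smallest library held 8883068 counts.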

Other observations

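Genes outside the 20 most abundant were also correlated with rank 1 within each diet, at a stricter limit than the r of 0.6 used within the 20. Of 14043 genes, on the same log2 scale relative to all genes outside the 20, 294 had an r of at least 0.8 with ENSRNOG00000034234 over the 8 standard libraries and 145 over the 8 ketogenic ones, and 7 had it in both. In the opposite direction the numbers were 149 and 184, and 5 in both. These are descriptions over 8 libraries in each diet, with no test and no count expected by chance. At a limit of 0.8, rank 6 (r = 0.749 over ketogenic libraries) and rank 16 (r = 0.722 over standard libraries) would not have been kept either. Genes outside the 20 were not counted at 0.6. The counts thus cannot show whether following rank 1 was particular to the most abundant genes.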
